A study of Homo sapiens with 2 samples.

Results

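PML and the 6 genes of the retinoic acid receptors (RARA, RARB, RARG) and retinoid X receptors (RXRA, RXRB, RXRG) were described by the LDB1 peaks that lie in and around them in NB4 cells. A gene was given every peak whose midpoint fell between its ends or at most 10 kb outside them, and counts at 50 kb were taken as well. By this rule 48 of the 52765 peaks on chromosomes 1 to 22 and X were counted for these 7 of 19974 protein-coding genes. The library was made by CUT&Tag, where Tn5 transposase is brought to an antibody's target and inserts sequencing adapters into the DNA next to it. The cells were NB4, an untreated line from a human acute promyelocytic leukaemia with the PML::RARA fusion, and the antibody was against LDB1, an adaptor protein of enhancer and promoter complexes. A second library of untreated NB4 cells was made with a non-specific IgG antibody; it was not analysed here. There was 1 library per antibody and no replicate, so the values lack a replicate check and no test between samples was possible. A peak list holds no expression, so the identity of the cells was not checked against marker genes.

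RAR and RXR proteins are nuclear receptors that bind DNA as RAR-RXR pairs at retinoic acid response elements. Without ligand the pair recruits corepressors, and retinoic acid exchanges these for coactivators. RXR proteins also pair with other nuclear receptors, such as those for vitamin D and thyroid hormone. PML is the scaffold of nuclear bodies, and in acute promyelocytic leukaemia its fusion to RARA blocks myeloid maturation until retinoic acid is given. Reads from the fusion and from the intact PML and RARA alleles cannot be told apart in a list of peak positions on the reference genome.

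The receptor genes differed widely in LDB1 peaks. RXRA held 33 of the 48 peaks (68.8%), RARA 8, PML 3, RARG 2, and RARB and RXRG 1 each, while RXRB had none. Of the 7 genes, 6 thus had a peak by the 10 kb rule, which 70.1% of all protein-coding genes met. The median was 2 peaks per gene, against 1 over all protein-coding genes. Without RXRA the median of the other 6 was 1.5. At 50 kb the same 6 genes had a peak, where 86.1% of all genes had one, and with the gene body only 5 of 7 had one, where 54.5% of all genes did. The limit of 10 kb took in an RXRA peak at 9755 bp and a RARA peak at 9510 bp, and left out a PML peak at 10954 bp and an RXRA peak at 11391 bp.

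**Figure D1:**
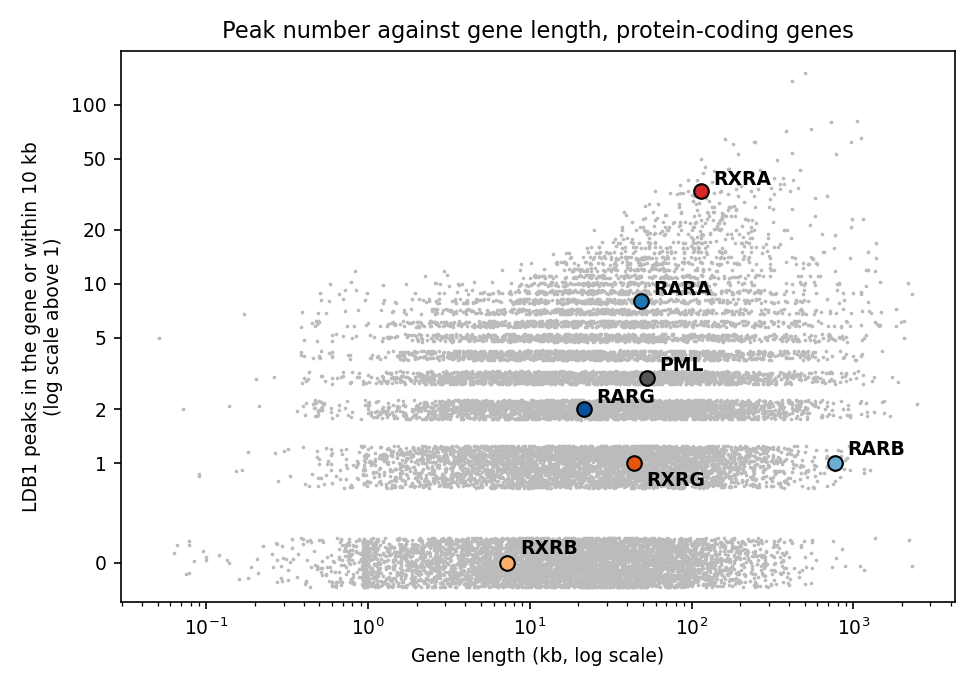
Number of LDB1 peaks in each protein-coding gene or within 10 kb of it (vertical, log scale above 1, with grey points spread slightly) against gene length in kb (horizontal, log scale); the 7 named genes are the large points. RXRA, with 33 peaks, lies high among the genes of its length, though some of these have more, and RARB has 1 peak over 769 kb.

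The sequences of 4 promoters are shown as examples of starts that peaks did and did not meet. They are RefSeq sequences of GRCh38.p14 from 250 bases before to 50 bases after the annotated start, read 5' to 3' on the gene's strand. RXRG has the only promoter window that a peak overlapped. RARB start 1 has the single RARB peak just downstream, and RARB start 3 has none near it. RXRA start 1 lies between neighbouring peaks. In RARB start 1 and RXRA start 1 capitals mark the GC box GGGCGG. In RXRG they mark the same GC box, the GATA-type site AGATAA and an E-box, which is the site class of the basic helix-loop-helix partners of LDB1 and reads CAGCTG. In RARB start 3 they mark a direct repeat of receptor half-sites, searched as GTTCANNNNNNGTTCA. Single half-sites are not marked. Windows that no peak overlapped hold such letters as well: CAGCTG in RXRA start 2 and RARA start 3, and the GATA-type TGATAA in RARB start 4.
RXRG (chr1:165445077-165445376, minus strand): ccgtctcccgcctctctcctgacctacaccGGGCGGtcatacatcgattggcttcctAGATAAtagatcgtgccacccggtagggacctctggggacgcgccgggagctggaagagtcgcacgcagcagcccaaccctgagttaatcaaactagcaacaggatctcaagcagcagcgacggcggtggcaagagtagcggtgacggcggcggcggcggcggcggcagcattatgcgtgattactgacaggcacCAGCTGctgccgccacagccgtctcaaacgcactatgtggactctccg
RARB start 1 (chr3:24829071-24829370, plus strand): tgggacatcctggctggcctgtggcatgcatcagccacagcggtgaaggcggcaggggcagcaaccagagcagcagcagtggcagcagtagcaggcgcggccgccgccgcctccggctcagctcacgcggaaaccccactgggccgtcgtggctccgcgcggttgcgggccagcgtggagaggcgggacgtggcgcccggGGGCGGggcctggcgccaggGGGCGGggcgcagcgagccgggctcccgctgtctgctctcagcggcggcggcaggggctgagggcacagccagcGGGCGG
RARB start 3 (chr3:25428013-25428312, plus strand): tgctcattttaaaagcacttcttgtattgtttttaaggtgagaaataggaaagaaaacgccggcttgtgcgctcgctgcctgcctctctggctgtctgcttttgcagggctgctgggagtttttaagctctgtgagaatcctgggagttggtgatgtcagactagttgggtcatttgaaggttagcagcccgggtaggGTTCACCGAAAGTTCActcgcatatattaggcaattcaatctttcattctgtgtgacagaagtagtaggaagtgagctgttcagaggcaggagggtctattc
RXRA start 1 (chr9:134326205-134326504, plus strand): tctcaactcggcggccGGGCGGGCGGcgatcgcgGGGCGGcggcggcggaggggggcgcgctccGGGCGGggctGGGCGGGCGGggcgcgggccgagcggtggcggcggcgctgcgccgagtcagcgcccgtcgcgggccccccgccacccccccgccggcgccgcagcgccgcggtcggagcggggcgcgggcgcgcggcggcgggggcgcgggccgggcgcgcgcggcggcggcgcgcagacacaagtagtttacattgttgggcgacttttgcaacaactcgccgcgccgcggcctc

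RXRA, which encodes the RXR protein that partners many receptors in blood and other tissues, was the densest of the genes. It spans 114 kb on chromosome 9 (134326455 to 134440585, plus strand), and 30 of its peaks had their midpoint in the gene body. Peaks covered 39331 bp, 34.5% of the gene. The 33 peaks made 24.6 per 100 kb of the gene and its 10 kb margins. Over all protein-coding genes the median was 2.3 per 100 kb, with quartiles of 0 and 6.94. As many or more peaks were counted for 49 of the 19974 genes, RXRA included. A density as high or higher was reached by 535 genes (2.68%), again with RXRA included. Of the 2884 protein-coding genes at least as long as RXRA, itself included, 43 had 33 peaks or more, 437 had none, and their median was 2.

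The RXRA peaks were widest in the first part of the gene. The widest, 9181 bp (chr9:134333947-134343127), had its midpoint 12.1 kb after the first start, and only 3 peaks elsewhere in the list were as wide or wider. The next was 5234 bp (chr9:134353689-134358922), at 29.9 kb. Peaks of 2142 and 2308 bp lay at 2.44 and 5.84 kb, and a peak of 2139 bp lay 9.76 kb upstream of the gene. Of 3 equal stretches of the body, the first held 12 peaks and 26.5 kb of peak sequence, the middle one 11 peaks and 7.51 kb, and the last 7 peaks and 5.29 kb. The number of peaks thus differed less along the gene than their summed width did. Of the 33 peaks, 12 (36.4%) were wider than 1 kb, against 16.4% of all peaks on these chromosomes. The median width was 758 bp, against 550 bp over all peaks.

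**Figure D2:**
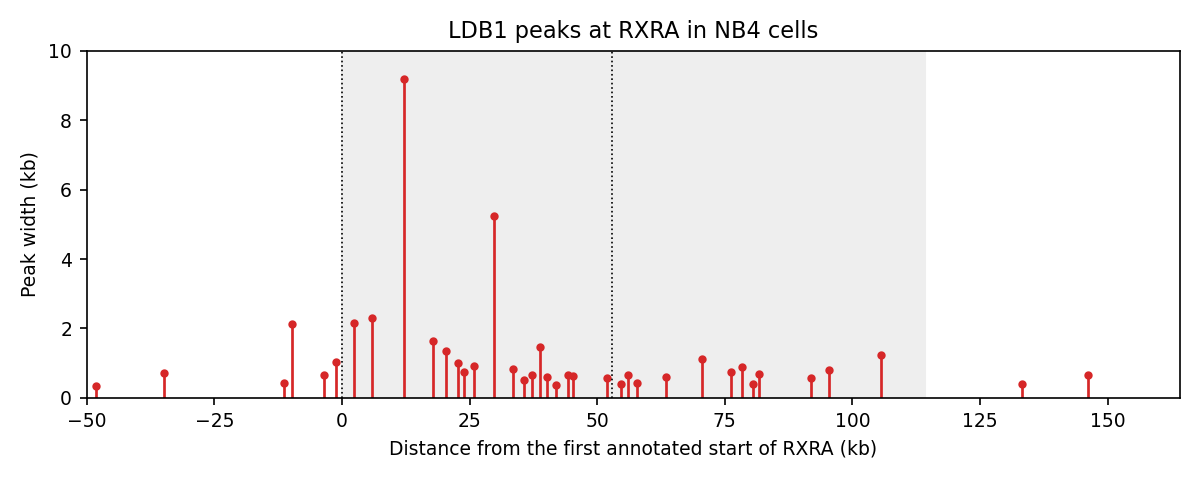
LDB1 peaks from 50 kb before to 50 kb after RXRA: each stem stands at a peak midpoint, in kb from the first annotated start, and its height is the peak width in kb. The grey band is the gene body and dotted lines are its 2 listed starts; the 9181 and 5234 bp peaks stand in the first of 3 equal stretches of the gene.

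Neighbouring peaks in the RXRA body were a median of 1.2 kb apart, from 337 bp to 9.58 kb. When peaks at most 10 kb apart were joined, RXRA lay in a single run of 34 peaks over 118 kb (chr9:134314858-134432753). Across the genome, 1970 such runs had at least 5 peaks and 32 had more than 34. The run ended near the gene: between 10 and 50 kb from RXRA there were 5 peaks, and these include the first peak of the run, 11.4 kb upstream. The 500 kb on either side held 52 peaks, 5.2 per 100 kb, against 26.3 per 100 kb of the gene body. A broad enriched stretch can be listed as several peaks by a peak caller, so the count need not be a number of separate sites. The last gene of chromosome 9 in the annotation ends 3.89 Mb beyond RXRA, so RXRA lies near a chromosome end. Peak widths and runs were not compared here by distance from chromosome ends. The part of this position in the RXRA count was not tested.

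RXRA has 2 listed starts, and neither lay inside a peak. A peak of 1045 bp ended 711 bp before start 1, with its midpoint 1.23 kb away. A peak of 577 bp lay 658 bp before start 2, with its midpoint 946 bp away, and through it RXRA counted as a gene with a peak at a start. Start 1 has 84.0% G and C in its window, against a median of 62.3% over 22140 windows of protein-coding genes, and matches GGGCGG 6 times.

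RARA encodes the receptor that is fused to PML in this leukaemia, and it had the next highest count. The gene spans 48.5 kb on chromosome 17 (40309180 to 40357643, plus strand). Its 8 peaks were 344 to 1057 bp wide and made 11.7 per 100 kb of window, a density that 14.2% of protein-coding genes reached. In the body 5 peaks made 10.3 per 100 kb, against 4.3 in the 500 kb on either side. The first 18.2 kb of the gene held no peak. The body peaks had their midpoints 18.5, 22.5, 36.4, 46.0 and 48.2 kb from the first start, with widths of 652, 1057, 664, 452 and 683 bp in that order, so that the last lay across the downstream end of the gene. All 3 listed starts were clear of peaks. The nearest peak edge was 18.2 kb from start 1, 9.14 kb from start 2 and 3.05 kb from start 3, each on the downstream side.

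The other 3 RARA peaks lay beyond the downstream end and belong as well to its neighbour. Those of 344 and 973 bp had their midpoints in GJD3, a connexin gene, and the one of 546 bp lay 2.42 kb from it. The 973 bp peak covered the start of the antisense transcript GJD3-AS1, with its midpoint 129 bp from that start. With the gene body only, RARA had 5 peaks, and with the widest 25% of all peaks it had 2 and RXRA 15. On the upstream side the nearest peak was 44.3 kb away, inside WIPF2, which encodes an actin regulator, and no peak midpoint lay in CDC6, a DNA replication gene that lies between them.

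PML had a peak density near that of its surroundings. The gene spans 53.1 kb on chromosome 15 (73994716 to 74047827), and its 2 body peaks were 490 and 811 bp wide, 28.5 and 40.8 kb from its lower-numbered end. That made 3.77 per 100 kb of the body, against 4.5 in the 500 kb on either side. The other peak within 10 kb, of 1327 bp, lay 2.67 kb outside PML and covered a start of the neighbour STOML1, which encodes a stomatin-like protein, with its midpoint 251 bp from it. Neither end of PML had a peak midpoint within 1 kb. Of the protein-coding genes, 32.5% had at least 3 peaks. A further peak 23.7 kb beyond the other end lay in GOLGA6A, a member of a family of near-identical golgin genes, and its place is uncertain.

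RARG encodes the retinoic acid receptor that is abundant in skin. The gene spans 21.6 kb on chromosome 12 (53210569 to 53232209, minus strand), and its 2 peaks of 462 and 634 bp lay in the downstream part of the body. Their midpoints were 14.6 and 20.9 kb from the start, the farther one 709 bp from the downstream end. No peak lay within 14.3 kb of the single listed start. The body held 9.24 peaks per 100 kb, against 4.7 in the 500 kb on either side, and a count this small makes that ratio uncertain. Between 10 and 50 kb away there were 4 peaks, all on the downstream side. The widest, of 2005 bp, had its midpoint where ZNF740, a zinc finger gene, and ITGB7, the integrin beta-7 gene, overlap. The others lay in ITGB7 and in CSAD, which encodes an enzyme of taurine synthesis.

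RARB encodes the receptor whose own transcription is induced by retinoic acid, and it was nearly empty of peaks. The gene spans 769 kb on chromosome 3 (24829321 to 25597932, plus strand) in the annotation, which includes its most upstream start. Its single peak of 1242 bp (chr3:24829452-24830693) began 131 bp after that start and had its midpoint 751 bp from it. No other peak lay in the gene or within 50 kb of it, so that the density was 0.127 per 100 kb of window. The 500 kb on either side held 4 peaks, 0.4 per 100 kb. Of the 136 protein-coding genes at least as long, RARB included, 27 had 1 peak or none and the median was 4.

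The other RARB starts were far from any peak. Start 2, start 3 and start 4 lay 511, 598 and 628 kb from the nearest midpoint, which is the same peak in each case. Start 3 is the retinoic acid-inducible promoter of the gene, known for the response element that RAR-RXR pairs bind. The repeat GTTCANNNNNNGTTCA was found there on the plus strand, beginning 52 bases before the start and reading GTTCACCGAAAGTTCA. It was present, on either strand, in 10 of the 22140 promoter windows (0.0452%) and in none of the other 12 windows of the receptor genes. This repeat was added to the motifs after the sequence had been seen. A window without a peak in untreated cells says nothing of the receptors that may sit there.

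RXRG encodes an RXR protein best known in muscle, brain and retina. Its 1 peak within 10 kb was narrow, 384 bp (chr1:165444973-165445356), and lay directly over the start, with its midpoint 38 bp upstream. It was the only one of 13 listed starts of these genes inside a peak, and 280 of the 300 bases of the promoter window lay within it. The gene body of 44.2 kb on chromosome 1 (165400922 to 165445126, minus strand) held no peak midpoint. The peak was narrow for this list, whose lower quartile of width was 408 bp. Of the 3 peaks between 10 and 50 kb, all downstream, the widest was 3286 bp and covered a start of LMX1A, a LIM homeobox gene.

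RXRB, which encodes the most broadly expressed RXR protein, had no peak within 50 kb. It is short, 7.27 kb on chromosome 6 (33193588 to 33200853, minus strand). Of the 15612 protein-coding genes at least as long, itself included, 4269 had none within 10 kb. Within 50 kb, 86.1% of all protein-coding genes had a peak. The nearest peaks were 527 bp wide, 225 kb below it, and 409 bp wide, 164 kb above it. The stretch of 396 kb between them holds 18 protein-coding genes, RXRB included, among them COL11A2, RING1, TAPBP and DAXX. The 500 kb below RXRB held 1 peak and the 500 kb above held 20. RXRB lies in the major histocompatibility region, which the hg38 build also carries on alternate contigs. On chromosome 6 contigs of that kind 83 peaks were listed, 70 of them on the 7 alternate haplotypes of this region, with 2 to 20 on each. The sources used here do not give how reads that align to several contigs were handled. The gap around RXRB and a loss of such reads cannot be told apart, and its count of 0 is uncertain.

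**Figure D3:**
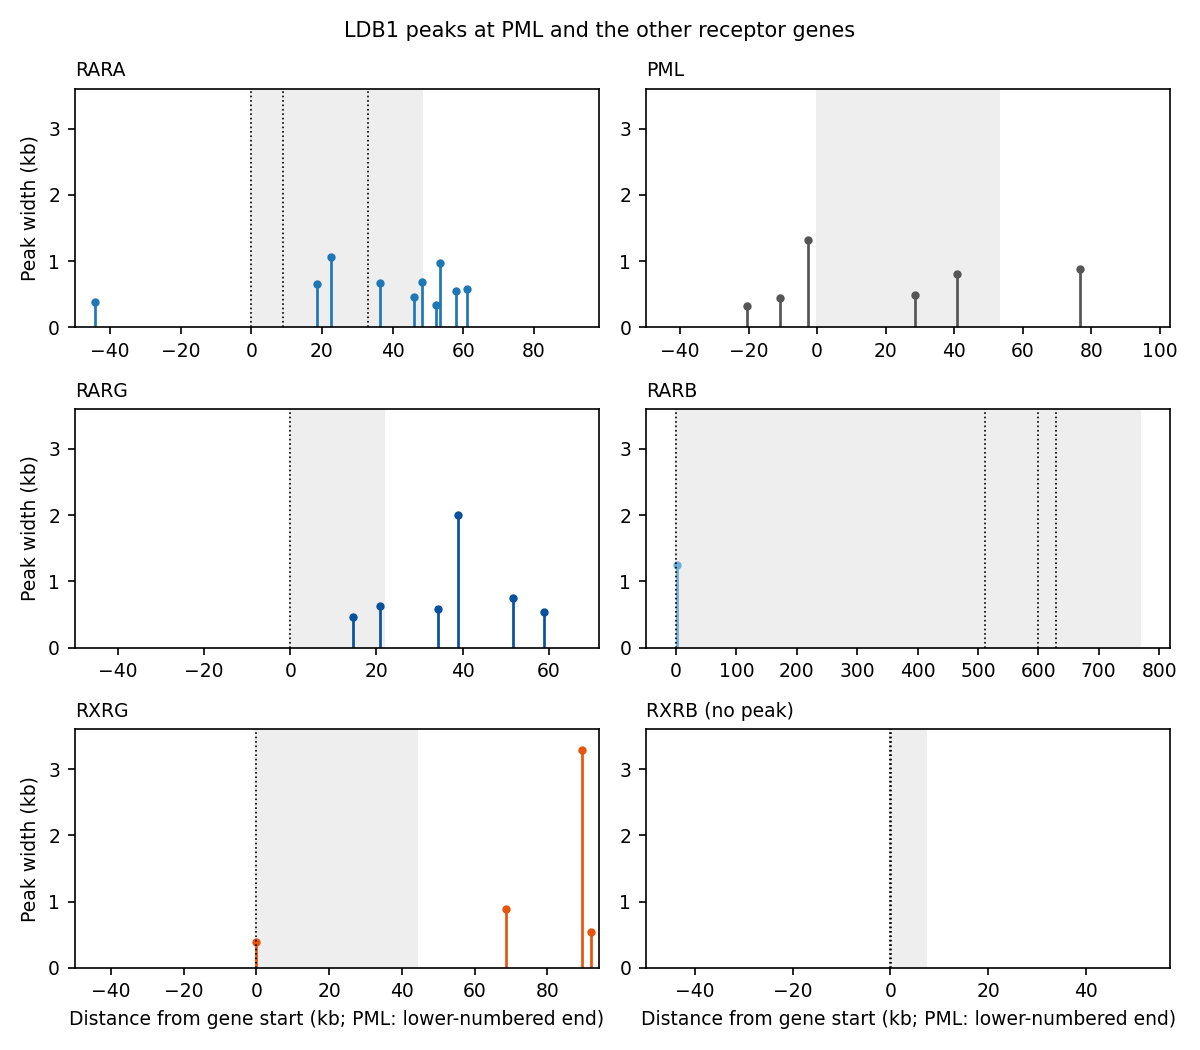
LDB1 peaks from 50 kb before to 50 kb after RARA, PML, RARG, RARB, RXRG and RXRB: stems stand at peak midpoints, in kb from the first start in the direction of transcription (for PML from its lower-numbered end), and their height is the peak width in kb. Grey bands are gene bodies and dotted lines listed starts; the RARA peaks in the gene and within 10 kb all lie at least 18.5 kb after its first start, and the RXRG start has a peak of 384 bp on it.

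By body density the order was RXRA, RARA, RARG, PML and RARB, with RXRB and RXRG at 0. In RXRA and RARA the body was denser than the 500 kb on either side, also when the 10 kb margins were taken in. In RARG this rests on 2 body peaks, and with the margins its density was 4.8 per 100 kb, against 4.7 in the 500 kb on either side. In the other 4 the body was not denser. A peak lay within 1 kb of a listed start in RARB, RXRA and RXRG, and within 1 kb of either end in PML, which has no listed start, none lay. These were 3 of 7 genes, against 36.2% of all protein-coding genes, with either end used for the 20.8% of genes that have no listed start. Genes with several starts have more chances to be counted, and 3 of the 13 starts met the rule. At either gene end the count was 4 of 7 (RARA, RARB, RARG and RXRG), against 37.6% of all genes, and in RARA and RARG the end was the downstream one.

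**Figure D4:**
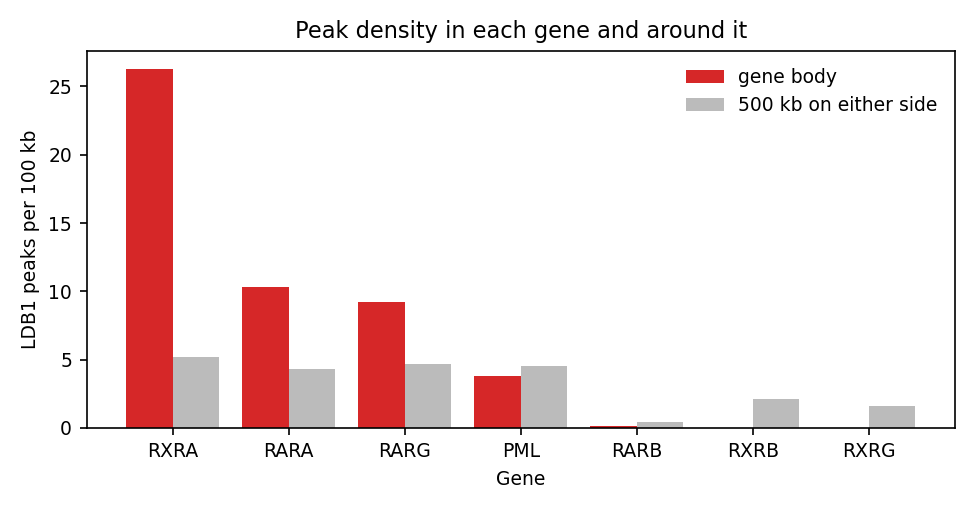
LDB1 peaks per 100 kb in the body of each gene (red) and in the 500 kb on either side of it (grey), with genes in falling order of body density. RXRA stands at 26.3 against 5.2 in its flanks, and PML at 3.77 against 4.5.

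Across the 13 promoter windows, 2 of which overlap each other at RXRB, matches to the letters of chosen sites were counted. The set holds GATA-type and E-box sites and also sites of other classes of factor. Each share of all windows below is the background for the count beside it. AGATAA was found in RXRG (7.88% of all 22140 windows hold it on either strand), and TGATAA in RARB start 4 (5.56%). CAGCTG was found in RXRG, RXRA start 2 and RARA start 3 (18.0%), and CAGATG in RXRA start 2 and RARA start 3 (12.2%). CACGTG was found in RARA start 2 (8.34%), TGTGGT, a RUNX-type site, in RXRA start 2 and RARB start 4 (11.3%), and TAATTA, a homeodomain-type site, in RARB start 4 (3.4%). GAGGAAGT, a PU.1-type site, was found in none (2.63%). The receptor half-sites AGGTCA and GGGTCA were each found in 3 windows (11.9 and 14.1%), and GGGCGG in 9 (56.3%). These are matches of letters, searched on both strands, and not measured sites.

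Partner receptors of RXR had a peak within 10 kb in 11 of 13 genes (84.6%), against 70.1% of all protein-coding genes. Their median was 3 peaks, against 1 over all protein-coding genes. Per 100 kb of window it was 2.45, against 2.3. NR4A1, an orphan receptor gene induced by growth signals, had 9 peaks with the widest at 1185 bp. THRA, the thyroid hormone receptor alpha gene, and PPARD, a fatty acid receptor gene, had 6 each (widest 1316 and 1136 bp). PPARA and NR1I3 had none. Coregulators of the receptors had a peak in 11 of 14 (78.6%, against 70.1%), with a median of 1.5 peaks, against 1. Per 100 kb of window their median was 1.22, below the 2.3 of all protein-coding genes. TBL1XR1, a corepressor subunit gene, and CREBBP, an acetyltransferase gene, had 5 each, and the coactivator genes NCOA2 and NCOA3 and the corepressor gene NRIP1 had none.

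Genes of PML nuclear bodies had a peak within 10 kb in 8 of 12 (66.7%), against 70.1% of all protein-coding genes. Their median was 1 peak and 1.12 per 100 kb of window, against 1 and 2.3 over all protein-coding genes. Like PML, none of the 12 had a peak at a start, or at either end for the 6 without a listed start. By that rule 36.2% of all protein-coding genes had one. HIPK2, a kinase gene, had 9 peaks, and ATRX, a chromatin remodeller gene, had 3. Among those without a peak were SP100, SUMO2 and DAXX, and DAXX lies in the same gap as RXRB. Genes of retinoid metabolism and binding had a peak in 12 of 13 (92.3%, against 70.1%) and at a start in 9 of 13 (69.2%, against 36.2%). Only 10 of the 13 have a listed start, and either end was used for the rest. A peak near neighbouring genes of the list counts for each of them. Their median was 2 peaks and 4.13 per 100 kb of window, against 1 and 2.3. DHRS3, which encodes a retinaldehyde reductase, had 12 peaks, CYP26B1, which encodes a retinoic acid hydroxylase, had 8, and STRA6, which encodes a retinol transporter, had 6. The only gene of that list without a peak was ALDH1A1, a retinaldehyde dehydrogenase gene.

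The genes that other RARA fusions join to RARA had a peak within 10 kb in 9 of 10 (90%, against 70.1%). Their median was 4.5 peaks and 4.62 per 100 kb of window, against 1 and 2.3 over all protein-coding genes. BCOR, a corepressor gene, had 25 peaks (widest 3552 bp), ZBTB16, which encodes PLZF, had 13, and STAT5B, a signal transducer gene, had 8. NPM1, the nucleophosmin gene, had none. PML, with 3 peaks, lay below the median count of these partners. Per 100 kb of window PML had 4.1, against their median of 4.62. TBL1XR1 is also on the coregulator list. These shares stand against 70.1% of all protein-coding genes within 10 kb and 36.2% at a start, the lists are short, and their genes differ in length, so the shares are given as a description.

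**Figure D5:**
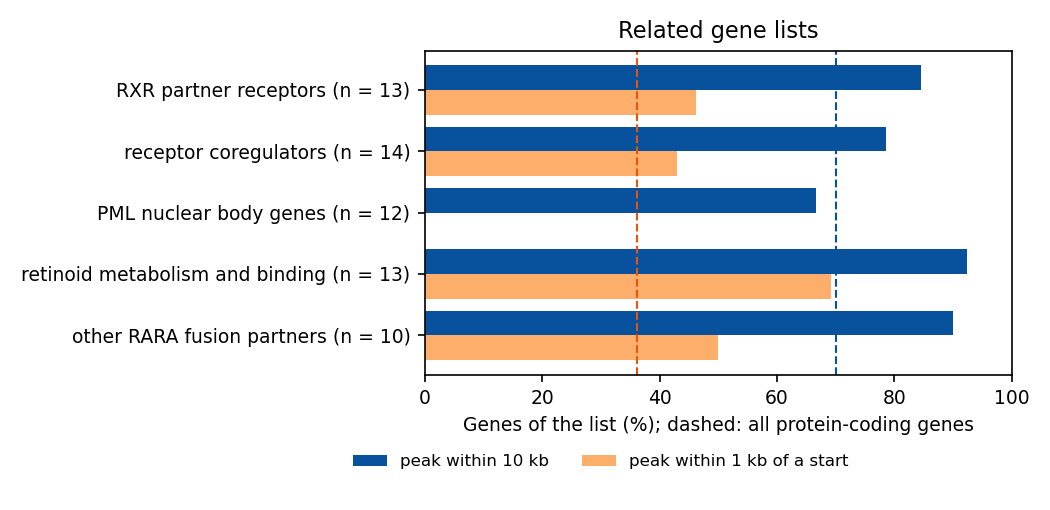
Share of the genes of each list, in percent, with an LDB1 peak in the gene or within 10 kb (blue) and within 1 kb of a start (orange). For genes without a listed start, either gene end was used. Dashed lines are the shares of all protein-coding genes by the same rules, 70.1 and 36.2%. The PML nuclear body list has no gene with a peak at a start.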

How the data were processed

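CUT&Tag with an LDB1 or an IgG antibody was done on untreated NB4 cells with a Vazyme Hyperactive kit, per the labels' protocols, with 1 library per antibody. The values used were the positions and widths of the LDB1 peaks as deposited. Per the file headers these are the chromosome, start, end and length in bp. In each of the 53742 rows the length was 1 more than the difference of end and start, so both ends are included. Per the submitters' processing notes the build was hg38, and Bowtie2 2.4.1 and MACS2 2.0.10 were used. The sources used here give no parameters, thresholds, treatment of duplicates or use of the IgG library as a control. With no height, score or read total the depth was unknown, and neither a strength nor a background in IgG could be given. Tn5 favours open chromatin, which can be listed as peaks where it is not subtracted.

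Genes came from a RefSeq table of GRCh38.p14, the same build, and starts, strands and promoter sequences from a RefSeq promoter table that lists 79.2% of the 19974 protein-coding genes, 6 of the 7 described among them. Exons and introns were not used, and peak sequences were not read. Midpoints on chromosomes 1 to 22 and X were counted with Python 3.11.15, pandas 2.3.3 and numpy 2.4.6, and the counting was tested on simulated peaks. No p-value was computed. The genes and lists were chosen with earlier results of these data known. Every one of the 7 genes is named. Of each list, up to 3 genes with most peaks (ties by width) and every gene without one are named, as are genes that hold or lie nearest to a counted peak. A few genes that this rule allows are not reported here. The neighbours of RXRB were named after their values were seen. Alternatives were other distances, any overlap in place of the midpoint, and the widest 50% or 25% of peaks.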

Additional observations from a re-analysis of the deposited data

How the results depend on the processing

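The 6 genes with a peak within 10 kb lay between 4 and 6 under the alternatives and stayed within 1.5 times the count. With the widest 25% of peaks the 48 summed peaks became 19, and the lists of RXR partners, coregulators and retinoid metabolism had 7, 3 and 5 genes with a peak, where the share of all protein-coding genes was 34.9% in place of 70.1%. Coregulators had 7 with the widest 50%, where that share was 52.5%. Genes with a peak at a start were 1 at 500 bp (RXRG), 5 at 5 kb and 1 with the widest 25% of peaks (RARB), where 28.0, 49.1 and 13.8% of all genes had one. RXRB stayed at 0 and RXRA had the highest count in each setting. No paired analysis was possible because each antibody had 1 library. Depth was unknown, so an absent peak may be a peak not detected.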
